A study of Mus musculus with 18 samples.

Results

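RNA from activated mouse CD4 T cells of the condition named Tfh_5 was compared with RNA from the condition named Tfh_1, in libraries whose genotype label is CD4Cre+ Maf fl/fl. The libraries were taken by these labels alone, which gave 3 of Tfh_5 and 3 of Tfh_1, numbered 1, 3 and 6 in each condition, of 18 in the series. Naive CD4 T cells had been kept for 3.5 days on plate-bound antibodies to the T cell receptor component CD3 and to the costimulatory receptor CD28, were then stained and sorted, and 3′ mRNA libraries were made from 50 ng of RNA each. The sources used here do not say what Tfh_1, Tfh_5 and the remaining condition, Tfh_A, contained. Every group of the series carries Maf fl/fl, a Maf gene flanked by loxP sites, and differs by a CD4Cre+ or CD4Cre- label. CD4Cre is Cre recombinase driven by Cd4 regulatory sequences, which are active in developing T cells before naive cells leave the thymus. Tfh_1 and Tfh_5 libraries labelled CD4Cre- Maf fl/fl, 3 each and numbered 2, 4 and 5, are used below as a comparison. The sources used here do not give age, sex, the sort gate or any pooling of animals. Nothing says that the libraries came from separate animals or cultures, so all p-values measure the spread between these libraries, which may be technical. In the main edgeR fit that spread was estimated over all 18 libraries, so an SE is not that of the 6 compared libraries alone.

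The Maf RNA ran against the genotype labels, and for that reason the groups are called labelled Cre-positive and labelled Cre-negative throughout. Levels are CPM (rounded counts over the library's effective size, scaled to 1000000), given in the order of replicates 1, 3 and 6 for the Cre-positive label and 2, 4 and 5 for the Cre-negative label. Maf (chromosome 8, 115703253 to 115706894 in mm10) is the gene of c-Maf, a transcription factor that the series title sets between TGF-β and the Tfh or Th17 fate of helper T cells. It stood at 207, 260.1 and 196 CPM in Tfh_1 and at 397, 331 and 319 CPM in Tfh_5 with the label Cre-positive. With the label Cre-negative it stood at 0, 0 and 2.03 CPM in Tfh_1 and 0, 0 and 0 CPM in Tfh_5. Libraries labelled as lacking Cre thus held almost no Maf RNA, and those labelled as carrying it held more, so any direction drawn between the labels below rests on labels that this gene contradicts. Within the label Cre-positive, every Tfh_5 library lay above every Tfh_1 library, but the difference did not pass the test (log2 fold change 0.66 ± 0.64, SE, n = 3 against 3; edgeR adjusted p = 0.800). That error rests on the spread over the whole series, the libraries with almost no Maf RNA included.

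The Hif1a protein is the oxygen-regulated subunit of hypoxia-inducible factor 1 (HIF-1), a transcription factor that accumulates when oxygen is scarce and also when T cells are activated through mTOR signalling. Its targets include glucose transporters, glycolytic enzymes, the lactate exporter Slc16a3 and genes that lower mitochondrial oxygen use, and it binds DNA at sites with the core letters ACGTG. Activated T cells raise glycolysis, and HIF-1 is known to favour Th17 cells over regulatory T cells. TGF-β signals through Smad proteins, induces its own feedback regulators such as Pmepa1 and Smad7, and takes part in the differentiation of Th17 and regulatory T cells. Metallothioneins bind zinc and copper, and their genes carry metal response elements with the core TGCACNC or TGCGCNC.

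Of the gene lists used, those of the hypoxia response and of glycolysis had the largest shares of lower members in Tfh_5. As examples that hold the HIF-1 core, 5 of their promoters are shown, and the share over all windows follows them. The promoter of the metallothionein gene Mt1, the gene with the smallest p-value, is added. Each promoter is the 250 bases before a RefSeq start site (GRCm38.p6, the mm10 build), 5′ to 3′ on the gene's strand, with ACGTG on either strand in capitals. Bnip3 (mitophagy receptor) has its window at chr7:138909507-138909756, minus strand. Ankrd37 (ankyrin repeat protein) has its window at chr8:45999851-46000100, minus strand. Pgk1 (phosphoglycerate kinase) has its window at chrX:106186850-106187099, plus strand. Ldha (lactate dehydrogenase A) has the window shown at chr7:46845554-46845803, plus strand, and Slc16a3 (lactate exporter) has its at chr11:120948817-120949066, plus strand. Mt1 has its window at chr8:94178839-94179088, plus strand.
Bnip3: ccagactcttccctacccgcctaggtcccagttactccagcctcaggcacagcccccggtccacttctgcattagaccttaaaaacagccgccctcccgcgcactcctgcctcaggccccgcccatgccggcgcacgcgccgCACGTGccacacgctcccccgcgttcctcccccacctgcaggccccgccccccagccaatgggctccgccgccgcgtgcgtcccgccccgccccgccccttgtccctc
Ankrd37: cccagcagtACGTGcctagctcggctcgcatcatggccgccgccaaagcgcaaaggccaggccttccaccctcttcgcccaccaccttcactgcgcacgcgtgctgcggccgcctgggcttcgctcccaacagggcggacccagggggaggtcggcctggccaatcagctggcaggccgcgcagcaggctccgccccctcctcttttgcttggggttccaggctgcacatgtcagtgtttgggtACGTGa
Pgk1: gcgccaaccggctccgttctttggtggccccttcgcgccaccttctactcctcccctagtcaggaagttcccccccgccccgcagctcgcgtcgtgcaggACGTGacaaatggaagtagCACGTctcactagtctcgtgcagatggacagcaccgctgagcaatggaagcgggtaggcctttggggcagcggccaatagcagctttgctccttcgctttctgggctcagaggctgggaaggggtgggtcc
Ldha: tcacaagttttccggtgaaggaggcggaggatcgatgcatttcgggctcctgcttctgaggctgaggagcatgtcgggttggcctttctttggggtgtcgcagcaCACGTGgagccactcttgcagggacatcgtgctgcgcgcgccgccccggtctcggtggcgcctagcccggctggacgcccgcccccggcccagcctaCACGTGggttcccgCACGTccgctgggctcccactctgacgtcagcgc
Slc16a3: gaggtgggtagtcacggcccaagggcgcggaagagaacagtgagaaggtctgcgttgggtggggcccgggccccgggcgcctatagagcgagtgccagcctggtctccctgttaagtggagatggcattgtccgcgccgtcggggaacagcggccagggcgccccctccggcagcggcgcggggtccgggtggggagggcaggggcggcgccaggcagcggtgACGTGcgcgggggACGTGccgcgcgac
Mt1: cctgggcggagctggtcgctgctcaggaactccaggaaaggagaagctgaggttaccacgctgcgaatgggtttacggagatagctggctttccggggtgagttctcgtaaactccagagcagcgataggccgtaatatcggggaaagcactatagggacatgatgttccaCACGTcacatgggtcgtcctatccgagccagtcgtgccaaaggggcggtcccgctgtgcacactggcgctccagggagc
The Ldha window held 3 separate stretches of the core, those of Pgk1, Slc16a3 and Ankrd37 held 2 each, and Bnip3 and Mt1 held 1 each. A second Ldha start site has a window with no match. The windows shown for Ankrd37, Ldha and Slc16a3 lie within the annotated span of the gene, and most of the Mt1 window does, so these start sites are internal. Mt1 also held 1 metal response core close to its start, and the window of its neighbour Mt2 held 3. Of the 11735 genes tested, 9011 had a RefSeq window, 11446 windows in all, of which 22.2% held ACGTG. The share was 43.2% of 37 windows for the genes of the hypoxia and glycolysis lists that were lower in Tfh_5, 26.3% of 133 windows for the other lower genes and 12.1% of 58 windows for the higher genes. For the metal response cores, with both spellings and both strands searched, the shares were 29.6% of all windows, 37.6% of 170 windows of lower genes and 32.8% of 58 windows of higher genes. A match is a description of letters, and no test of these shares was made.

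The 6 libraries had total counts between 6734620 and 8836394, with between 10725 and 11553 genes above 0. The 2 most abundant identifiers took 38.3% ± 0.662 of the counts in Tfh_1 and 39.8% ± 2.30 in Tfh_5 (SD, n = 3 each; exact permutation test, two-sided p = 0.4, where 0.1 is the smallest p that 3 against 3 allows). Markers of CD4 T cells summed to between 4358 and 4753 CPM in Tfh_1 and between 3806 and 4635 CPM in Tfh_5. Defining markers of other cells stayed low: the highest sum in any library was 1.82 CPM for 5 B cell markers, 6.04 CPM for 2 CD8 T cell markers, 3.64 CPM for 3 natural killer cell markers, 6.84 CPM for 4 myeloid markers, 7.81 CPM for the 1 γδ T cell marker and 0 for 3 erythroid markers. Of the longer marker lists, some moved with the conditions. The 16 myeloid and dendritic markers summed to between 51.0 and 65.6 CPM in Tfh_1 and to between 152.8 and 215.9 CPM in Tfh_5. Of these, 5 were tested, with a median log2 fold change of 1.80, and most of the sum was Ctss, the lysosomal protease cathepsin S, at 47.1, 49.05 and 58.8 CPM in Tfh_1 and 210.2, 143 and 185 CPM in Tfh_5 (1.8 ± 0.47; edgeR adjusted p = 0.0519). Ctss passed the threshold in 8 of 17 other settings, DESeq2, limma-voom and the fit of the 6 libraries alone among them, with adjusted p-values between 1.11e-05 and 0.222 over all 17. The 16 B cell markers summed to between 98.8 and 129 CPM in Tfh_1 and between 15.6 and 26.3 CPM in Tfh_5, and most of that sum was the class II gene H2-Ab1, described below. The 8 CD8 T cell markers summed to between 28.2 and 55.7 CPM in Tfh_1 and between 23.8 and 36.4 CPM in Tfh_5, and those for natural killer and γδ T cells stayed below 10 CPM in every library. The 6 erythroid markers summed to between 1.302 and 2.24 CPM in Tfh_1 and between 2.47 and 3.87 CPM in Tfh_5. The part of other cells in the results below was not tested.

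Tfh_5 libraries held less RNA of many genes and more of a smaller number. Of 11735 genes tested, 206 passed an adjusted p of 0.05 in edgeR's quasi-likelihood test, 1.76% of the genes. There were 155 lower in Tfh_5, 1.32% of the genes, and 51 higher, 0.435%. The 3 libraries of each condition did not overlap for 195 of the 206, against 1802 of all tested genes, 15.4%. Calls and overlap were taken from the same values, so the 195 add no separate evidence. At least 4-fold differences numbered 56 among the lower and 14 among the higher genes. In bulk RNA, fewer cells of a type and less RNA per cell cannot be told apart. The higher count rested in part on single libraries: it was 29 without Tfh_1 replicate 1, 32 without Tfh_1 replicate 6 and 28 without Tfh_5 replicate 3. A fit of the 6 libraries alone called 77 lower genes and 38 higher genes.

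**Figure D1:**
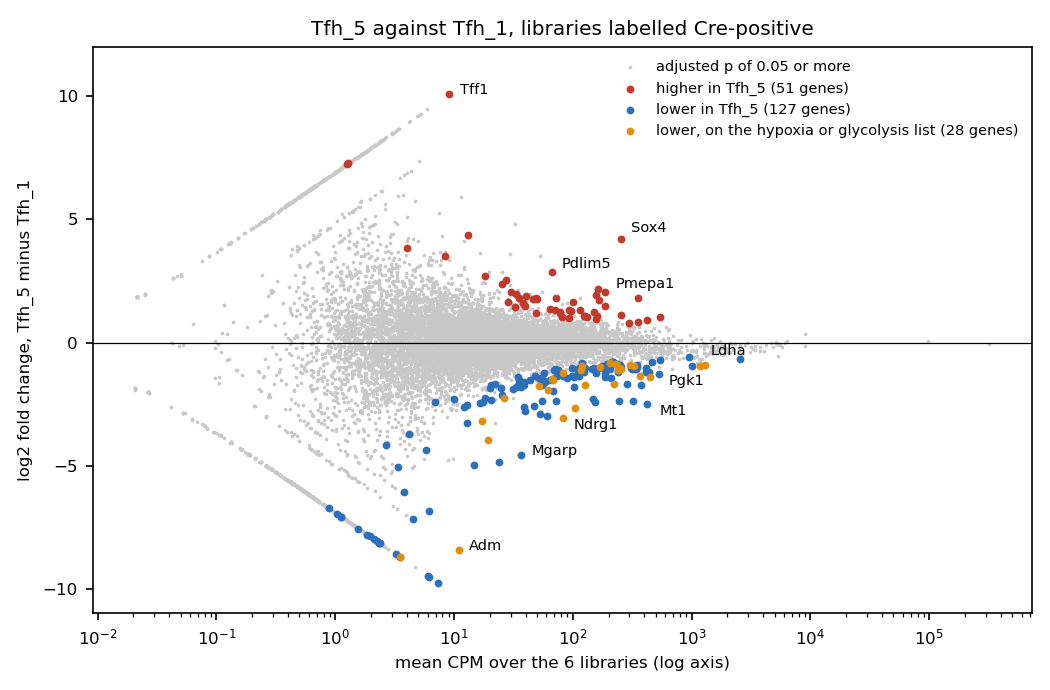
Each point is 1 of the 11735 tested genes, with its mean level in the 6 libraries labelled Cre-positive (CPM, log axis) across and the log2 fold change of Tfh_5 over Tfh_1 up. Tested genes with a mean of 0 CPM in these libraries are not drawn. The 51 higher genes are red, 127 lower genes blue and the 28 lower genes of the hypoxia and glycolysis lists orange, with most of the orange points at middle to high mean levels.

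The hypoxia list fell in Tfh_5. Of 20 members, all of them tested, 15 were lower and 0 higher past an adjusted p of 0.05 in edgeR (17 lower and 0 higher at an unadjusted p under 0.05), with a median log2 fold change of -1.62, where the median of all tested genes was 0. No share of all tested genes is given for the unadjusted cut, here or for the lists below, so counts at that cut have no background. The libraries of the 2 conditions did not overlap for 17 of the 20, against 15.4% of all tested genes. Ndrg1 (chromosome 15, 66929318 to 66969641), a stress-induced gene and a common hypoxia marker, stood at 128, 142 and 174 CPM in Tfh_1 and at 8.61, 32.1 and 12.01 CPM in Tfh_5. All its Tfh_1 libraries lay well above all Tfh_5 libraries, with a log2 fold change of -3.07 ± 0.32 (SE, n = 3 against 3; edgeR adjusted p = 6.16e-08). Bnip3, which marks mitochondria for removal, stood at 326, 367 and 331 CPM in Tfh_1 and 146, 99.6 and 69.99 CPM in Tfh_5. The groups did not overlap, and the log2 fold change was -1.7 ± 0.23 (edgeR adjusted p = 8.01e-06). Its relative Bnip3l, also a mitophagy receptor, moved from 318, 287 and 348 CPM to 180.1, 152 and 151 CPM, a smaller fall (-0.98 ± 0.20; edgeR adjusted p = 0.00300).

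The RNA of Hif1a itself was lower, at 351, 465 and 364 CPM in Tfh_1 and 218, 200.5 and 215 CPM in Tfh_5 (log2 fold change -0.90 ± 0.21; edgeR adjusted p = 0.0147). Ankrd37, whose promoter is shown above, was close to absent in Tfh_5, at 1.96, 5.06 and 0 CPM against 29.95, 34.3 and 45.4 CPM in Tfh_1 (-3.95 ± 0.73; edgeR adjusted p = 0.00129). Ero1a, an oxidase of protein folding in the endoplasmic reticulum, stood at 50.2, 81.3 and 107 CPM and 32.03, 13.9 and 23.8 CPM (-1.78 ± 0.30; edgeR adjusted p = 0.000322). The secreted products were the most one-sided. Adm, the vasodilator peptide adrenomedullin, had 450 counts over the Tfh_1 libraries and 1 over the Tfh_5 libraries, a ratio of 484 per effective library size (95% counting interval 86.5 to 19164; edgeR adjusted p = 0.00552). Vegfa, the vascular growth factor, had 146 counts in Tfh_1 and 0 in Tfh_5, at least 52.4-fold lower with a floor of 3 counts over the group (edgeR adjusted p = 0.00374). Intervals and floors cover counting error only.

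The oxygen sensors that mark HIF-1α for destruction, Egln1 and Egln3, were both lower, by log2 fold changes of -1.54 ± 0.33 and -1.06 ± 0.23 (edgeR adjusted p = 0.00711 and 0.00680). Ak4, a mitochondrial adenylate kinase, Ddit4, an inhibitor of mTOR complex 1, and Nfil3, a leucine zipper transcription factor, had log2 fold changes of -3.18, -0.95 and -2.24 (edgeR adjusted p = 0.0106, 0.00762 and 0.0332). Jmjd6, an oxygen-dependent hydroxylase, and Higd1a, a mitochondrial inner membrane protein, had -1.25 and -0.94 (edgeR adjusted p = 0.00789 and 0.0116). Of the 5 members that did not pass, P4ha1, a collagen prolyl hydroxylase, had -1.37 ± 0.38 (edgeR adjusted p = 0.0543). Plod2, a lysyl hydroxylase, was the 1 member with a positive value, 0.4 ± 0.32 (edgeR adjusted p = 0.684). The number of lower members was between 10 and 16 when each of the 6 libraries was left out in turn, and was 8 of 19 in the fit of the 6 libraries alone. Calls were lost for Hif1a (without Tfh_1 replicate 3 or Tfh_5 replicate 3, adjusted p up to 0.112), Egln1 (without Tfh_1 replicate 3 or Tfh_5 replicate 6, adjusted p up to 0.102), Egln3 (without Tfh_5 replicate 6, adjusted p up to 0.0726) and Ak4 (without Tfh_1 replicate 3, adjusted p up to 0.0546). A single library also decided Ddit4 (without Tfh_1 replicate 6 or Tfh_5 replicate 6, adjusted p up to 0.0659), Nfil3 (without Tfh_1 replicates 1, 3 or 6 or Tfh_5 replicates 3 or 6, adjusted p up to 0.162) and Higd1a (without Tfh_1 replicate 6 or Tfh_5 replicate 6, adjusted p up to 0.107). Among other settings, the fit of the 6 libraries alone did not call Ankrd37, Vegfa, Egln1, Egln3, Ak4, Nfil3 or Higd1a and limma-voom did not call Ak4. In addition, the fit of the 9 libraries labelled Cre-positive did not call Ak4 or Nfil3.

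Glycolysis enzymes fell with them. Of 23 list members, 21 were tested and 13 were lower in edgeR, with 0 higher (17 lower and 0 higher at an unadjusted p under 0.05) and a median log2 fold change of -0.95. The libraries of the 2 conditions did not overlap for 17 of the 21, against 15.4% of all tested genes. Hk2, the hexokinase induced in activated cells, which traps glucose, stood at 78.4, 103 and 114 CPM in Tfh_1 and 35.1, 39.9 and 29.4 CPM in Tfh_5. The fall was -1.5 ± 0.22 on the log2 scale (edgeR adjusted p = 2.85e-05). The aldolases, which split fructose bisphosphate, both fell. Aldoc moved from 191, 197 and 189 CPM to 86.1, 55.8 and 34.9 CPM (-1.71 ± 0.28; edgeR adjusted p = 0.000226), and the more abundant Aldoa from 1613, 1902 and 1512 CPM to 883, 1078 and 724 CPM (-0.90 ± 0.18; edgeR adjusted p = 0.00270). Triose phosphate isomerase, Tpi1, stood at 615, 744 and 579.9 CPM and 276, 196 and 259 CPM (-1.41 ± 0.24; edgeR adjusted p = 0.000371). None of these 4 genes had overlapping groups, which the naming rule required of Aldoa.

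Pgk1, Ldha, Slc16a3 and Pdk1, of later glycolysis and the handling of pyruvate, also fell. Pgk1, which makes ATP from bisphosphoglycerate, stood at 544, 557 and 478 CPM in Tfh_1 and 187, 209 and 212 CPM in Tfh_5, the smallest adjusted p of the list (log2 fold change -1.38 ± 0.17; edgeR adjusted p = 1.18e-06). Ldha, which turns pyruvate into lactate, moved from 1415, 1553 and 1687 CPM to 1071, 663 and 697 CPM (-0.94 ± 0.18; edgeR adjusted p = 0.00192). Slc16a3, which carries lactate out of the cell, moved from 325, 321 and 345 CPM to 174, 181 and 101 CPM (-1.12 ± 0.21; edgeR adjusted p = 0.00131). The pyruvate dehydrogenase kinase Pdk1 moved from 117, 87.8 and 87.6 CPM to 41.7, 21.8 and 12.5 CPM (-1.95 ± 0.37; edgeR adjusted p = 0.00169). For all 4 the highest Tfh_5 library lay below the lowest Tfh_1 library, which the naming rule required of Ldha.

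The neuronal-type glucose transporter Slc2a3, with -2.67 on the log2 scale, the hexokinase Hk1 with -1.13, the phosphofructokinase Pfkp with -0.84, Gapdh with -0.98 and the enolase Eno1 with -0.86 also passed (edgeR adjusted p = 0.0102, 0.0137, 0.0428, 0.0427 and 0.0291). Among the 8 that did not pass, Pkm, which makes pyruvate, had -0.68 ± 0.33 (edgeR adjusted p = 0.407), Gpi1, the isomerase of glucose phosphate, -0.59 ± 0.20 (0.164), Pgam1 -0.76 ± 0.24 (0.106) and Pfkl -0.95 ± 0.28 (0.0743). Leaving out each of the 6 libraries left between 9 and 11 lower members, and the fit of the 6 libraries alone had 11. Gapdh, Eno1, Ldha, Pgk1, Aldoa, Tpi1 and Pfkp had fractional deposited values in all 6 libraries, and the sources used here do not say how reads shared with copies such as processed pseudogenes were divided. Single libraries decided the calls of Slc2a3 (without Tfh_5 replicate 3, adjusted p up to 0.0739), Hk1 (without Tfh_1 replicate 6 or Tfh_5 replicate 6, adjusted p up to 0.127), Pfkp (without any 1 of the 6 libraries, adjusted p up to 0.233) and Gapdh (without Tfh_1 replicates 1 or 3 or Tfh_5 replicates 1, 3 or 6, adjusted p up to 0.156). A single library also decided Eno1 (without Tfh_1 replicates 1 or 3 or Tfh_5 replicates 1, 3 or 6, adjusted p up to 0.146). Among these genes, the fit of the 6 libraries alone did not call Hk1 or Pfkp and RLE scaling did not call Pfkp or Gapdh.

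Hilpda, Fam162a and Mgarp, which are on neither list, were also lower. Hilpda, a lipid droplet protein, stood at 242, 292 and 247 CPM in Tfh_1 and 71.01, 46.7 and 27.9 CPM in Tfh_5 (log2 fold change -2.42 ± 0.25; edgeR adjusted p = 4.85e-08). Fam162a, a mitochondrial protein known as a HIF-1 target, stood at 605, 519.6 and 585 CPM and 189.8, 145 and 187 CPM (-1.71 ± 0.18; edgeR adjusted p = 6.16e-08). Mgarp, a mitochondrial transport protein, moved from 101, 54.7 and 55.5 CPM to 5.89, 3.12 and 0 CPM (-4.56 ± 0.64; edgeR adjusted p = 0.000132). The groups did not overlap in these 3 genes, as the rule that named them required.

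**Figure D2:**
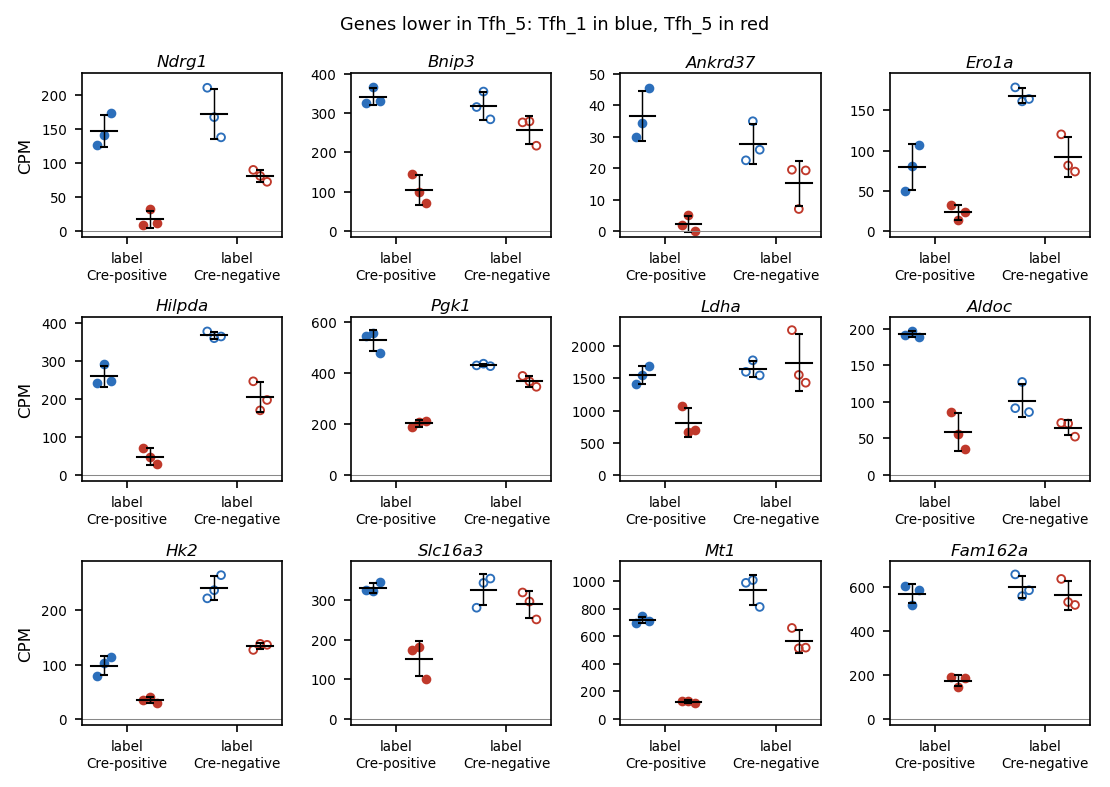
Each panel gives the CPM of 1 gene in every Tfh_1 (blue) and Tfh_5 (red) library, filled for the label Cre-positive and open for the label Cre-negative, with the mean as a line and the SD as a bar. For the 12 genes the filled red points lie below the filled blue points, as for Pgk1, whose Tfh_5 libraries stood at 187, 209 and 212 CPM.

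The metallothionein genes Mt1 and Mt2 fell, and Mt1 had the smallest p-value of all tested genes. Mt1 (chromosome 8, 94178883 to 94180327) stood at 699, 747 and 712 CPM in Tfh_1 and 133, 129.7 and 116 CPM in Tfh_5. The libraries within each group differed little, the groups were far apart, and the log2 fold change was -2.51 ± 0.20 (edgeR adjusted p = 3.31e-10). Mt2, its neighbour and the other widely expressed metallothionein gene, stood at 493, 393 and 351 CPM and 136, 65.2 and 36.5 CPM (-2.38 ± 0.36; edgeR adjusted p = 0.000620); the 2 transcripts are close in sequence, and the sources used here do not say how reads were divided between them.

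Several receptors of the tumour necrosis factor family that costimulate activated and regulatory T cells were lower. Tnfrsf9, known as 4-1BB (chromosome 4, 150920155 to 150946104), stood at 456, 558 and 612 CPM in Tfh_1 and 112, 138 and 60.4 CPM in Tfh_5 (log2 fold change -2.39 ± 0.23; edgeR adjusted p = 1.34e-08). Tnfrsf18, known as GITR, moved from 265, 369 and 293 CPM to 123, 129.7 and 85.7 CPM (-1.45 ± 0.22; edgeR adjusted p = 4.70e-05). Tnfrsf4, known as OX40, moved from 457, 448 and 425 CPM to 213, 275 and 189 CPM (-0.98 ± 0.19; edgeR adjusted p = 0.00193). Traf1, an adaptor that binds such receptors, was lower as well, at 83.6, 80.5 and 88.9 CPM and 23.4, 26.2 and 25.96 CPM (-1.74 ± 0.32; edgeR adjusted p = 0.000991). The receptor list as a whole did not share this direction: 3 of its 18 tested members were lower, 1 was higher, and its median of -0.12 ranged from -0.31 to 0.06 when single libraries were left out. The higher member was Tnfrsf1b, TNF receptor 2, with 1.81 ± 0.49 (edgeR adjusted p = 0.0425).

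These 3 receptors also stand on the list of regulatory T cell genes, of whose 16 tested members 5 were lower and 0 higher in edgeR (6 lower and 1 higher at an unadjusted p under 0.05, and 6 lower and 0 higher in DESeq2 and in limma-voom), with a median of 0.29. The other 2 lower members were Izumo1r, known as folate receptor 4, and Ctla4, which competes with CD28 for its ligands. Izumo1r stood at 140.2, 96.4 and 87.9 CPM in Tfh_1 and 22.1, 17.01 and 44.7 CPM in Tfh_5 (-1.95 ± 0.34; edgeR adjusted p = 0.000519). Ctla4 stood at 275, 296 and 258 CPM and 113, 81.01 and 204 CPM (-1.06 ± 0.26; edgeR adjusted p = 0.0196). Foxp3, the factor that defines regulatory T cells, was too low to be tested and reached at most 0.755 CPM in the 6 libraries. Leaving out 1 library ended the calls of Tnfrsf1b (without any 1 of the 6 libraries, adjusted p up to 0.182) and Ctla4 (without Tfh_1 replicates 1 or 3 or Tfh_5 replicates 1 or 3, adjusted p up to 0.174). Beyond that, the fit of the 9 libraries labelled Cre-positive did not call Tnfrsf1b or Ctla4 and the fit of the 6 libraries alone did not call Ctla4.

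Tgm2, Lgals3, Ly6a and H2-Ab1 also fell. Tgm2, a protein-crosslinking transglutaminase, stood at 294, 265 and 184 CPM in Tfh_1 and 59.8, 46.9 and 44.6 CPM in Tfh_5 (-2.3 ± 0.21; edgeR adjusted p = 4.77e-09). Lgals3, a galectin that binds glycans, moved from 81.4, 56.96 and 60.2 CPM to 6.65, 12.9 and 13.04 CPM (-2.6 ± 0.31; edgeR adjusted p = 9.01e-07). Ly6a, the surface protein Sca-1 of activated and memory T cells, moved from 821, 742 and 708 CPM to 312, 312 and 304 CPM (-1.29 ± 0.17; edgeR adjusted p = 3.71e-06). These 3 had no overlap between the groups, which the naming rule required of Tgm2. H2-Ab1, a chain of the class II molecules that present peptides, stood at 98.7, 120.1 and 103 CPM in Tfh_1 and 19.04, 16.1 and 5.42 CPM in Tfh_5 (-2.99 ± 0.35; edgeR adjusted p = 4.54e-07). Class II genes are best known from B cells and myeloid cells. Of the 5 defining B cell markers 3 were at 0 in all 6 libraries, and they summed to at most 0.163 CPM in Tfh_1 and at most 1.82 CPM in Tfh_5. Of the 4 defining myeloid markers 2 were at 0 in all 6 libraries, and they summed to between 0 and 6.84 CPM in Tfh_1 and at most 0.130 CPM in Tfh_5, while the longer myeloid and dendritic list was higher in every Tfh_5 library, as given above.

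Among homing and adhesion genes, 4 of 25 tested members were lower and 2 higher, with a median of -0.41. Ccr7, the receptor that guides T cells into lymph node T zones, stood at 223, 204 and 171 CPM in Tfh_1 and 95.2, 74.3 and 110.3 CPM in Tfh_5 (-1.1 ± 0.25; edgeR adjusted p = 0.0102). Ccr7 marks naive and central memory cells. Cd44, which binds hyaluronan and is high on activated cells, had -0.85 ± 0.21 (edgeR adjusted p = 0.0251). In the other direction, Ccr6, the receptor for CCL20 and a mark of Th17 cells, stood at 33.4, 32.1 and 30.6 CPM in Tfh_1 and 108, 135 and 96.1 CPM in Tfh_5 (1.82 ± 0.39; edgeR adjusted p = 0.00618). Cxcr3, the receptor of Th1 cells, stood at 0, 1.58 and 0 CPM and 8.91, 5.06 and 8.39 CPM (3.83 ± 0.91; edgeR adjusted p = 0.0154). Not called in every fit that left out 1 library were Ccr7 (without Tfh_1 replicate 1 or Tfh_5 replicate 3, adjusted p up to 0.0797), Cd44 (without Tfh_1 replicates 1, 3 or 6 or Tfh_5 replicates 1 or 3, adjusted p up to 0.133) and Cxcr3 (without Tfh_1 replicates 1 or 6, adjusted p up to 0.0928). The fit with no count filter did not call Cd44 and the fit of the 6 libraries alone did not call Cd44 or Cxcr3. Among other settings, the fit of the 9 libraries labelled Cre-positive did not call Cd44 or Cxcr3.

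Some regulators of transcription and survival were lower, and others, such as Sox4 and Ncor1, described below, were higher. Junb, an AP-1 subunit, stood at 367, 453 and 417 CPM in Tfh_1 and 246, 214 and 151 CPM in Tfh_5 (-1.02 ± 0.20; edgeR adjusted p = 0.00254). Fosl2, an AP-1 subunit of the Fos family, had -1.1 ± 0.26 (edgeR adjusted p = 0.0158). Id3, an inhibitor of E proteins, had -1.8 ± 0.42 (edgeR adjusted p = 0.0132), and Satb1, a chromatin organiser of T cells, -0.6 ± 0.16 (edgeR adjusted p = 0.0452). Runx3, a factor of cytotoxic and Th1 cells, had -1.05 ± 0.24 (edgeR adjusted p = 0.0108). Bcl2, which protects from apoptosis, stood at 23.7, 17.2 and 61.7 CPM and 9.82, 2.73 and 7.75 CPM (-2.34 ± 0.41; edgeR adjusted p = 0.000762). Cbx7, a Polycomb protein, moved from 29.6, 18.99 and 37.8 CPM to 0.755, 1.69 and 0.258 CPM (-4.97 ± 0.83; edgeR adjusted p = 0.000295). On the list of quiescence genes Foxp1, a forkhead factor that keeps naive T cells quiet, was the 1 higher member, with 0.96 ± 0.25 (edgeR adjusted p = 0.0349), against 5 lower of 25. Zc3h12a, the RNase Regnase-1 that trims activation transcripts, had -4.35 ± 1.04 (edgeR adjusted p = 0.0161). The calls that a single library decided were those of Fosl2 (without Tfh_1 replicates 1 or 3 or Tfh_5 replicate 6, adjusted p up to 0.137), Id3 (without Tfh_1 replicate 1 or Tfh_5 replicates 1 or 3, adjusted p up to 0.0974), Satb1 (without Tfh_1 replicates 1 or 3 or Tfh_5 replicates 3 or 6, adjusted p up to 0.199) and Runx3 (without Tfh_1 replicate 6 or Tfh_5 replicate 1, adjusted p up to 0.0984). A single library also decided Foxp1 (without Tfh_1 replicates 1, 3 or 6 or Tfh_5 replicates 3 or 6, adjusted p up to 0.178) and Zc3h12a (without Tfh_1 replicate 1 or Tfh_5 replicates 1 or 6, adjusted p up to 0.106). In addition, the fit of the 6 libraries alone did not call Fosl2, Id3, Satb1, Runx3, Bcl2, Foxp1 or Zc3h12a and the fit of the 9 libraries labelled Cre-positive did not call Fosl2, Satb1 or Zc3h12a. Among these genes, RLE scaling did not call Satb1 and the fit with no count filter did not call Satb1. Beyond that, limma-voom did not call Bcl2.

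Genes of the cytoskeleton, amino acid supply and interferon response contributed a few members each. Of 27 tested actin, S100 and galectin genes, Lgals3, Vim, Anxa2 and S100a10 were lower and S100a4 higher. Anxa2, a membrane-binding annexin, moved from 581, 636 and 509.9 CPM to 286, 304 and 157 CPM (-1.21 ± 0.21; edgeR adjusted p = 0.000525), and its binding partner S100a10 had -1.03 ± 0.19 (edgeR adjusted p = 0.000956). Vim, the intermediate filament vimentin, had -1.01 ± 0.22 (edgeR adjusted p = 0.00676). S100a4 moved the other way, from 17.8, 10.6 and 24.1 CPM to 38.4, 51.7 and 53.3 CPM (1.45 ± 0.25; edgeR adjusted p = 0.000501). Got1, the cytosolic aspartate transaminase, had -1.44 ± 0.28 and Mthfd1l, of mitochondrial folate metabolism, -1.04 ± 0.24 (edgeR adjusted p = 0.00254 and 0.0110), and with Ddit4 they were the 3 lower genes of 26 tested for amino acid supply. Of 26 interferon response genes, 3 were lower: Samhd1, a nucleotide hydrolase, with -0.92 ± 0.20, Gbp2, a guanylate-binding protein, with -1.26 ± 0.28, and Psmb8, an immunoproteasome subunit, with -0.78 ± 0.21 (edgeR adjusted p = 0.00733, 0.00804 and 0.0396). Calls that did not hold on leaving out 1 library were those of Vim (without Tfh_1 replicate 3 or Tfh_5 replicate 3, adjusted p up to 0.0776), Mthfd1l (without Tfh_1 replicate 6 or Tfh_5 replicate 3, adjusted p up to 0.0593), Gbp2 (without Tfh_5 replicate 3, adjusted p up to 0.0607) and Psmb8 (without Tfh_1 replicates 1, 3 or 6 or Tfh_5 replicates 3 or 6, adjusted p up to 0.274). The fit of the 6 libraries alone did not call Vim, S100a4, Got1 or Psmb8 and limma-voom did not call S100a4. Among other settings, the fit of the 9 libraries labelled Cre-positive did not call Psmb8.

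There were 18 lower genes with no count in any Tfh_5 library, and 3 higher genes with none in any Tfh_1 library. The fitted fold change of such a gene depends on the prior count, so lower bounds are given, with 3 counts over the group as the floor. Serpinb5, a serpin with no protease target, had 313 counts in Tfh_1, at least 112-fold more than in Tfh_5 (edgeR adjusted p = 0.00119). Stc2, the secreted glycoprotein stanniocalcin 2, had 231 counts, at least 82.8-fold (edgeR adjusted p = 0.0104), and Plcxd1 had 249 counts, at least 89.3-fold (edgeR adjusted p = 0.00310). Smtnl2 had 254 counts in Tfh_1 and 2 in Tfh_5, a ratio of 137 (95% counting interval 37.4 to 1134; edgeR adjusted p = 0.0108). Selenbp1, a selenium-binding protein, was lower and was at 0 in 2 of the 3 Tfh_5 libraries, at 39.5, 42.1 and 56.98 CPM and 0, 4.67 and 0 CPM (edgeR adjusted p = 0.00285). On the other side Tff1, a secreted trefoil peptide known from the stomach, had 0 counts in Tfh_1 and 410 in Tfh_5, at least 127-fold higher (edgeR adjusted p = 0.0472), spread over the libraries as 11.03, 22.2 and 21.4 CPM. The long noncoding RNA gene Gm13546, the pseudogene Rps27a-ps3 and the unnamed identifier 100862081, which the naming rule picked, had log2 fold changes of -3.28, -0.67 and -0.94 (edgeR adjusted p = 0.0452, 0.0219 and 0.00390) and the pseudogene may share reads with near-identical copies. Calls were lost for Smtnl2 (without Tfh_5 replicates 1 or 6, adjusted p up to 0.0610), Tff1 (without any 1 of the 6 libraries, adjusted p up to 0.151), Gm13546 (without Tfh_1 replicates 3 or 6 or Tfh_5 replicates 3 or 6, adjusted p up to 0.244) and Rps27a-ps3 (without Tfh_1 replicates 1 or 6 or Tfh_5 replicates 3 or 6, adjusted p up to 0.181). In addition, the fit of the 6 libraries alone did not call Stc2, Smtnl2, Selenbp1, Gm13546 or Rps27a-ps3 and the fit of the 9 libraries labelled Cre-positive did not call Selenbp1, Gm13546 or Rps27a-ps3. Among these genes, the stricter count filter did not call Tff1 and limma-voom did not call Gm13546. Beyond that, the fit without Tfh_5 replicate 5 of the label Cre-negative did not call Gm13546.

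The higher genes included Sox4 (chromosome 13, 28948919 to 28953699), an HMG-box transcription factor induced by TGF-β in T cells. It stood at 27.7, 19.3 and 30.6 CPM in Tfh_1 and 464, 511 and 471 CPM in Tfh_5. The Tfh_5 libraries agreed closely with each other and none came near Tfh_1 (log2 fold change 4.22 ± 0.62, SE, n = 3 against 3; edgeR adjusted p = 0.00125). Pmepa1 (chromosome 2, 173224458 to 173276731), a feedback inhibitor that binds Smad proteins, stood at 58.8, 84.6 and 75.5 CPM and 321, 313 and 264 CPM (2.04 ± 0.24; edgeR adjusted p = 6.42e-07). Ctsw, a cysteine protease of cytotoxic lymphocytes, stood at 94.5, 62.7 and 73.1 CPM and 218, 262 and 278 CPM (1.72 ± 0.29; edgeR adjusted p = 0.000471). In edgeR these 3 members of the TGF-β response list rose, of 32 tested, while Id3 fell. At an unadjusted p under 0.05, 8 were higher and 4 lower, DESeq2 called 5 higher and 2 lower, limma-voom 6 higher and 2 lower, and the fit of the 6 libraries alone 6 higher and 0 lower of 28. The list's median was 0.72, and 21 members had a positive value, against 5704 of all 11735 tested genes. The groups did not overlap for 14 of the 32, against 15.4% of all tested genes. The median was 1.25 without Tfh_1 replicate 3 and 0.50 without Tfh_5 replicate 3.

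Of the TGF-β genes that did not pass, Ldlrad4, another Smad-binding inhibitor, was high in every Tfh_5 library, at 91.9, 92.4 and 107 CPM against 12.2, 5.38 and 8.14 CPM in Tfh_1. Its error, from the spread over all 18 libraries, was wide (3.5 ± 1.27; edgeR adjusted p = 0.277). The Smad corepressors Skil and Tgif1 had 1.46 ± 0.50 and 1.88 ± 0.58 (edgeR adjusted p = 0.156 and 0.103), and Spsb1, an adaptor that targets the TGF-β receptor for degradation, had 2.34 ± 0.72 (0.0971). Smad7, the best known feedback inhibitor, ranged from 0 to 21.7 CPM over the 6 libraries (edgeR adjusted p = 0.520). Acvrl1, another uncalled member, went the other way, with 1021 counts over the Tfh_1 libraries and 381 over the Tfh_5 libraries. Its groups did not overlap. Ldlrad4, Skil, Tgif1 and Spsb1 were chosen after their values were seen, and 11 of the 32 tested members had a negative value.

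Outside that list, Timp2, an inhibitor of matrix metalloproteinases, stood at 62.6, 61.7 and 71.1 CPM in Tfh_1 and 219, 268 and 252 CPM in Tfh_5 (1.92 ± 0.29; edgeR adjusted p = 4.74e-05). Aplp2, a membrane protein related to the amyloid precursor, moved from 58.04, 74.8 and 42.3 CPM to 247, 319 and 231 CPM (2.19 ± 0.28; edgeR adjusted p = 2.41e-06). Rnf149, a membrane-bound ubiquitin ligase, moved from 187, 174 and 108 CPM to 459.9, 568 and 636 CPM (1.82 ± 0.23; edgeR adjusted p = 1.37e-06). For all 3 the groups were apart, as the rule that named them required. Pdlim5, an actin-associated scaffold, moved from 5.22, 14.2 and 28.5 CPM to 89.4, 99.7 and 160.3 CPM (2.87 ± 0.55; edgeR adjusted p = 0.00192). Arl4c, a small GTPase that acts on cell shape, moved from 8.82, 10.1 and 5.21 CPM to 57.3, 39.7 and 44.8 CPM (2.55 ± 0.47; edgeR adjusted p = 0.00129). Ssx2ip, a protein of centrosomes, had 4.36 ± 0.90 (edgeR adjusted p = 0.00421). The nuclear corepressor Ncor1 had a smaller rise, 0.92 ± 0.19 (edgeR adjusted p = 0.00340).

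Abundant or strongly changed genes that also rose were Gpx1, a selenium-dependent peroxidase, with 1.02 ± 0.22, Myh9, the heavy chain of nonmuscle myosin, with 0.84 ± 0.20, and Stmn1, which destabilises microtubules, with 0.79 ± 0.19 (edgeR adjusted p = 0.00676, 0.0174 and 0.0172). Stmn1 was the 1 member that edgeR called of 39 tested cell cycle genes. At an unadjusted p under 0.05 in edgeR, 5 of them were higher and 1 lower, while DESeq2 called 2 higher and limma-voom 1 higher. Marcks, an actin-binding kinase substrate, Anapc15, a subunit of the anaphase-promoting complex, Rbm18 and Rnf208 had log2 fold changes of 2.07, 3.53, 2.72 and 2.37 (edgeR adjusted p = 0.0459, 0.0194, 0.0274 and 0.0274). AA467197, a small mitochondrial protein gene also known as Nmes1, had 1.06 ± 0.24 (edgeR adjusted p = 0.0104). Single libraries decided the calls of Gpx1 (without Tfh_5 replicate 3, adjusted p up to 0.0516), Myh9 (without Tfh_1 replicates 1 or 3 or Tfh_5 replicate 3, adjusted p up to 0.131), Stmn1 (without Tfh_1 replicates 1 or 6 or Tfh_5 replicate 3, adjusted p up to 0.137) and Marcks (without any 1 of the 6 libraries, adjusted p up to 0.199). A single library also decided Anapc15 (without Tfh_1 replicates 1 or 6 or Tfh_5 replicate 3, adjusted p up to 0.142), Rbm18 (without Tfh_1 replicates 1, 3 or 6 or Tfh_5 replicate 3, adjusted p up to 0.228), Rnf208 (without Tfh_1 replicates 3 or 6 or Tfh_5 replicates 3 or 6, adjusted p up to 0.134) and AA467197 (without Tfh_1 replicate 3 or Tfh_5 replicate 1, adjusted p up to 0.0577). The fit of the 6 libraries alone did not call Ssx2ip, Stmn1 or Anapc15 and the fit of the 9 libraries labelled Cre-positive did not call Marcks or Anapc15. Among other settings, limma-voom did not call Anapc15, Rbm18 or Rnf208.

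**Figure D3:**
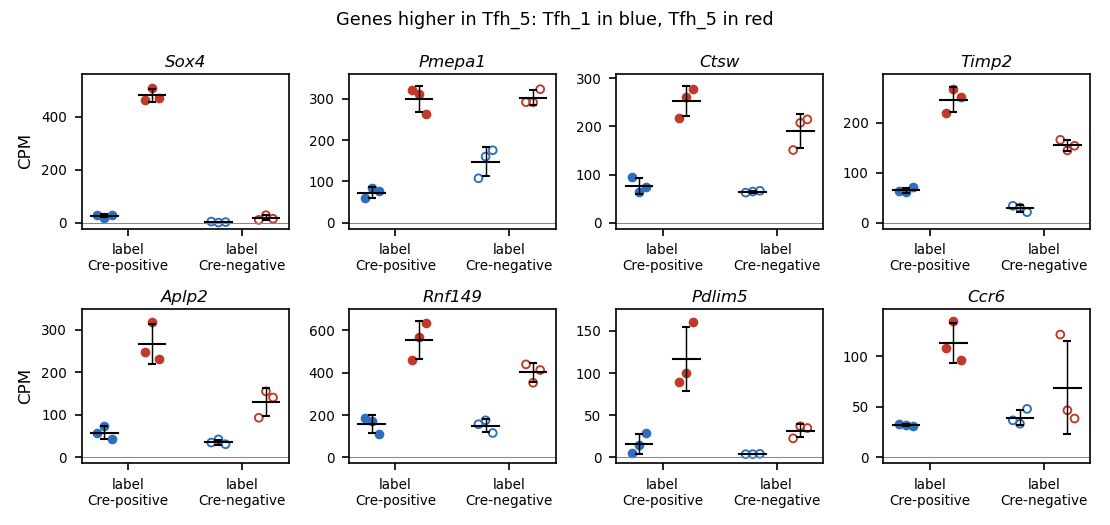
Each panel gives the CPM of 1 gene in every Tfh_1 (blue) and Tfh_5 (red) library, filled for the label Cre-positive and open for the label Cre-negative, with the mean as a line and the SD as a bar. For the 8 genes the filled red points lie above the filled blue points, with Sox4 at 464, 511 and 471 CPM in Tfh_5.

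Genes that define helper T cell fates mostly did not pass. Il21, the cytokine of Tfh cells, stood at 198, 249.5 and 239 CPM in Tfh_1 and 144, 122 and 94.8 CPM in Tfh_5 (-0.93 ± 0.28; edgeR adjusted p = 0.0924). Its groups did not overlap. Pdcd1, which encodes PD-1, stood at 32.2, 39.2 and 23.8 CPM and 43.4, 95.2 and 82.8 CPM (1.22 ± 0.40; edgeR adjusted p = 0.143). Icos, the costimulatory receptor of Tfh cells, had -0.4 ± 0.24 (edgeR adjusted p = 0.504), and Cxcr5, their follicle homing receptor, 2.6 ± 1.76 (edgeR adjusted p = 0.582). Pou2af1, a B cell coactivator that Tfh cells also express, stood at 50.8, 33.7 and 37.9 CPM and 117, 127 and 117 CPM, with the groups apart. Its error, from the spread over all 18 libraries, was wide (1.56 ± 0.83; edgeR adjusted p = 0.453). With the label Cre-negative it had 0 counts in Tfh_1 and 76 in Tfh_5. Il17a, the cytokine of Th17 cells, had 0.37 ± 0.28 (edgeR adjusted p = 0.651), and Id2, an inhibitor of E proteins, -0.24 ± 0.19 (edgeR adjusted p = 0.693). Il17f had 0.46 ± 0.99 and Il23r, the receptor chain that sustains Th17 cells, -2.23 ± 1.02 (edgeR adjusted p = 0.960 and 0.360). Lef1, a partner of Tcf7 in early Tfh cells, had -0.77 ± 0.41 (edgeR adjusted p = 0.428). Klf2, which opposes Tfh cells, Il2ra, the high-affinity chain of the IL-2 receptor, and Batf, an AP-1 family factor, had values near 0, -0.07 ± 0.61, -0.06 ± 0.18 and -0.18 ± 0.27 (edgeR adjusted p = 1, 0.984 and 0.902). Rora, Tcf7, Gata3, Tbx21 and Il2 were below 10 CPM in each of the 6 libraries and did not pass, and Il10 reached at most 11.9 CPM. Bcl6, Il4, Il22, Ifng and Prdm1 were at 0 in all 6 libraries and were not tested.

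By list, 1 of 23 Tfh genes passed (Id3, lower), 3 of 19 Th17 genes (Ccr6 higher; Lgals3 and Hif1a lower), 2 of 16 Th1 genes (Cxcr3 higher, Runx3 lower) and 1 of 9 Th2 genes (Nfil3, lower). Their medians were -0.40, 0.13, -0.27 and -0.41. Of 18 IL-6 and STAT3 response genes, Junb, Hif1a and Fosl2 were lower and 0 higher, with a median of -0.44. Of 13 genes reported as c-Maf targets, Ccr6 was higher and Ctla4 lower. In edgeR, 0 genes passed in either direction among 25 for cholesterol synthesis, 25 for Myc and ribosome biogenesis, 23 secreted cytokines, 14 for CD4 T cell identity and 7 of the aryl hydrocarbon receptor response. At an unadjusted p under 0.05 the counts were 5 (all lower), 2 (both higher), 3, 2 and 0 in that order, DESeq2 called 1, 0, 0, 1 and 0, and limma-voom 0, 0, 1, 1 and 0. At the adjusted cut 1.76% of all tested genes were called, and no such share is given for the unadjusted cut. The shares of the Tfh, Th17, Th1, Th2, IL-6 and STAT3, and c-Maf target lists lay above it, each from 1 to 3 called genes. Those of the hypoxia and glycolysis lists were the largest, and no list was tested as a whole.

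**Figure D4:**
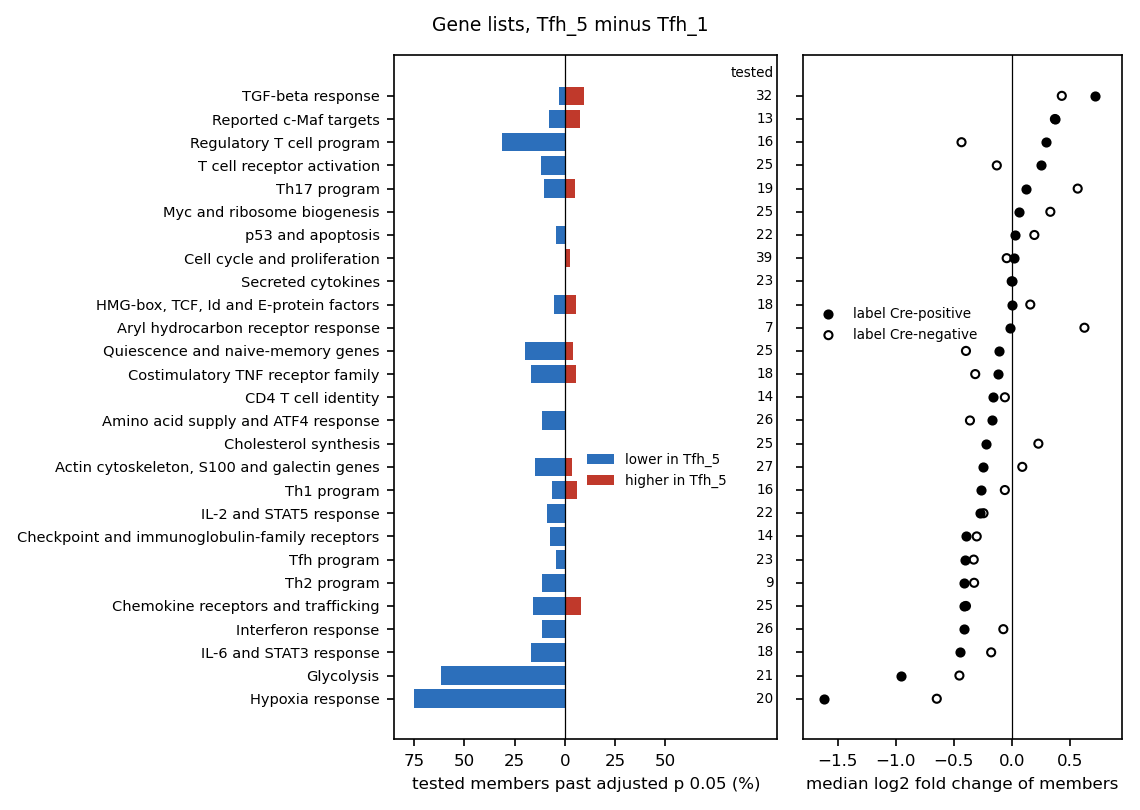
For each of 27 gene lists, with its number of tested members, the left side gives the percent of members past an adjusted p of 0.05 in the label Cre-positive, lower in blue and higher in red, and the right side the median log2 fold change of Tfh_5 over Tfh_1 for both labels. The hypoxia and glycolysis lists have the largest shares of lower members among these lists, 15 of 20 and 13 of 21, and the TGF-β list has a median of 0.72.

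The same contrast in the libraries labelled Cre-negative, which share no library with it, had fewer called genes, 65 of 11735, or 0.554%. That count was 35, 38 and 25 without Tfh_1 replicates 2, 4 and 5 of that label and 33 without its Tfh_5 replicate 5. Of the 51 higher genes 48 had the same sign there, and of the 155 lower genes 139 did, while 56.4% of all tested genes had the same sign in both labels. The median log2 fold change of the 51 was 1.63 with the label Cre-positive and 0.69 with the label Cre-negative, and that of the 155 was -1.59 and -0.63; the members were chosen on the first of each pair. There were 29 genes called in both labels, 12 higher and 17 lower, which is 14.1% of the 206 and 44.6% of the 65. None was called in opposite directions.

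Genes that changed in both labels included Sox4, Pmepa1, Ctsw, Timp2, Aplp2, Rnf149, Pdlim5 and S100a4 among the higher and Tnfrsf9, Tnfrsf4, Tnfrsf18, Tgm2, Id3, Satb1 and Ccr7 among the lower. Sox4 stood at 3.96, 0 and 1.89 CPM in Tfh_1 and 10.4, 28.1 and 14.7 CPM in Tfh_5 with the label Cre-negative (3.19 ± 0.67; edgeR adjusted p = 0.0437), a lower level in both conditions than with the label Cre-positive. Pmepa1 stood at 107, 160.1 and 175 CPM and 292, 292 and 324 CPM (1.03 ± 0.23; edgeR adjusted p = 0.0264). Tnfrsf9 stood at 514, 519 and 466 CPM and 147, 173 and 142 CPM (-1.7 ± 0.23; edgeR adjusted p = 3.79e-05). The same 3 TGF-β genes rose and Id3 fell in both labels.

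The hypoxia and glycolysis lists had no called member with the label Cre-negative. There, 0 of their 41 members passed in edgeR, with medians of -0.65 and -0.45, while 15 were lower at an unadjusted p under 0.05 and DESeq2 and limma-voom each called 4 lower; the libraries of the conditions did not overlap for 20 of the 41, where 16.0% of all tested genes did not overlap, and for 34 of the 41 with the label Cre-positive, where the share of all tested genes was 15.4%. The fitted difference was negative, a larger fall with the label Cre-positive, for 38 of 41, against 5821 of all 11735 tested genes. These lists stand out here by their fall in that label, which by itself favours a negative difference. In edgeR's test of the difference 19 had an unadjusted p under 0.05, and 1, Pgk1, passed after adjustment. The share of all tested genes at that unadjusted cut is not given. Ndrg1 stood at 211, 168 and 138 CPM in Tfh_1 and 90.2, 81.2 and 72.6 CPM in Tfh_5 there (-1.08 ± 0.30; edgeR adjusted p = 0.0861; difference between the labels -1.99 ± 0.43, edgeR adjusted p = 0.0596). Bnip3 stood at 315, 354 and 284 CPM and 276, 278 and 217 CPM (-0.31 ± 0.22; difference -1.39 ± 0.32, edgeR adjusted p = 0.0838). Ldha stood at 1603, 1782 and 1548 CPM and 2250.5, 1554 and 1433 CPM (0.09 ± 0.18; difference -1.02 ± 0.25, edgeR adjusted p = 0.117).

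The test of the difference between the labels passed for 7 genes, 0.0597% of those tested, all with the larger fall in the label Cre-positive: Mt1, Fam162a, Lgals3, Adora2b, Ly6a, Tgm2 and Pgk1. Mt1 stood at 989.7, 1009.9 and 815 CPM in Tfh_1 and 662, 514 and 519 CPM in Tfh_5 with the label Cre-negative, where it had -0.73 ± 0.19 on the log2 scale, and the difference was -1.78 ± 0.28 (edgeR adjusted p = 0.000766). Fam162a stood at 657, 558 and 585 CPM and 636, 531 and 518 CPM, so that its level did not separate the conditions as it did with the other label (difference -1.62 ± 0.25; edgeR adjusted p = 0.000766). The labels on which this direction rests are those that the Maf RNA contradicts. The count of 7 was 21 without Tfh_5 replicate 1 and 14 without Tfh_5 replicate 3 of the label Cre-positive, and 11 and 13 without Tfh_5 replicates 2 and 5 of the label Cre-negative.

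**Figure D5:**
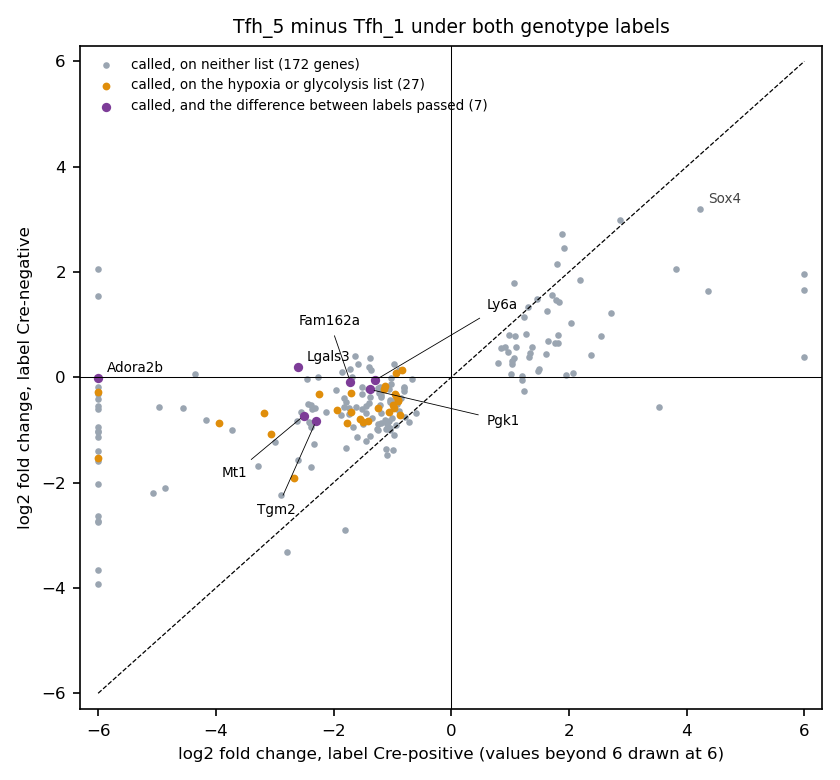
Each point is 1 of the 206 genes called in the label Cre-positive, with its log2 fold change of Tfh_5 over Tfh_1 there across and with the label Cre-negative up, values beyond 6 drawn at 6. The 27 points of the hypoxia and glycolysis lists that did not pass the difference test and the 7 genes that did are set apart by colour, and most points lie in the quadrants where both values have the same sign.

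Levels in Tfh_A with the label Cre-positive, from the same fit but with no test here, put some of these genes in context. Sox4 stood at 3.29, 12.3 and 9.94 CPM in Tfh_A and Pmepa1 at 39.3, 73.2 and 55.8 CPM, so that Sox4 was below both other conditions. Ndrg1 stood at 145, 140.0 and 138 CPM, Pgk1 at 404, 416 and 436 CPM and Mt1 at 734, 589 and 566 CPM in Tfh_A. Tnfrsf9 stood at 1224, 828 and 815 CPM and Maf at 22.8, 8.07 and 5.03 CPM.

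Genes named here follow a rule given with the processing, apart from Vegfa, Egln1, Egln3, Higd1a, Jmjd6, P4ha1, Plod2, Slc2a3, Hk1, Pfkp, Gapdh, Eno1, Pdk1, Pkm, Pgam1, Gpi1, Pfkl, Mt2, Traf1, H2-Ab1, Ldlrad4, Skil, Tgif1, Spsb1, Adora2b, Ctss and AA467197, which were chosen after their values were seen.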

How the data were processed

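The data were 3′ mRNA libraries of activated mouse CD4 T cells. Reads were aligned with STAR 2.7.2b and counted with featureCounts 1.6.4 on mm10, per the submitters' processing notes. The authors deposited an expected count (estimated count) per gene, made by aligning and counting as above, per the file headers and the submitters' processing notes. Between 11.7% and 18.1% of the listed genes had a value in a library that was not whole. The sources used here give no annotation, strand setting or way of sharing reads. Groups came from the genotype and treatment labels, and 0 columns belonged to no sample.

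Here, values were rounded and fitted with edgeR 4.0.16 in R 4.3.3 (TMM scaling, filterByExpr, robust quasi-likelihood test, 1 mean per group over all 18 libraries, Benjamini-Hochberg adjustment at 0.05). The fit tested 11735 of 27179 listed genes, with a common biological coefficient of variation of 0.814. Standard errors were the log2 fold change over the root of F. Counting intervals were at 95%, and floors were 3 counts. Alternatives were DESeq2 1.42.0, limma-voom 3.58.1, RLE scaling, scaling without the 2 most abundant identifiers, other filters, other sets of libraries, a replicate block, and leaving out each library.

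Named genes were those of a fixed panel, the genes with the largest changes, smallest adjusted p and highest levels among called genes whose groups did not overlap and whose higher group averaged 10 CPM or more, up to 5 per gene list, and up to 6 past the test of the difference; not all of those that passed no test are printed, and some items are not reported here. The comparison and the lists were chosen with earlier results of these data known. Genes whose pattern is most like that of Maf or Sox4 are not given, since the libraries fall into separate groups. Promoter windows came from RefSeq. Python 3.11.15, pandas 2.3.3, scipy 1.17.1 and matplotlib 3.10.9 were used.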

Additional observations from a re-analysis of the deposited data

Results flagged for a closer look

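The change from Tfh_1 to Tfh_5 differed between the genotype labels for 7 genes by edgeR's test of that difference, each with a more negative change in the label Cre-positive. The Maf RNA goes against these labels, so the direction between them rests on the labels alone. Mt1, a metallothionein, had a log2 difference of -1.78 ± 0.28, and Fam162a, a mitochondrial protein, -1.62 ± 0.25 (edgeR adjusted p = 0.000766 for both). These were the 2 of the 7 that passed under every alternative run. Lgals3, a galectin, had -2.8 ± 0.42 (edgeR adjusted p = 0.000766), with 196, 252 and 198 CPM in Tfh_1 and 240.0, 202 and 299 CPM in Tfh_5 of the label Cre-negative, where no fall was seen; limma-voom gave an adjusted p of 0.123. Adora2b, an adenosine receptor, had -8.59 ± 1.47 (edgeR adjusted p = 0.00460), a fitted value that depends on the prior count because no Tfh_5 library of the label Cre-positive held a count. With the label Cre-negative it had 201 counts in Tfh_1 and 192 in Tfh_5, and its adjusted p was 0.123 by limma-voom and 0.278 when only the compared libraries were fitted.

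Ly6a, a surface protein of activated T cells, had a difference of -1.24 ± 0.24 (edgeR adjusted p = 0.0168), Tgm2, a transglutaminase, -1.47 ± 0.29 (0.0203) and Pgk1, a glycolytic enzyme, -1.15 ± 0.24 (0.0385). Ly6a did not pass in the fit of the compared libraries alone (0.0699), nor without Tfh_1 replicate 1 of the label Cre-positive (0.0610) or Tfh_1 replicates 2 and 5 of the label Cre-negative (0.0787 and 0.0878). Tgm2 did not pass in limma-voom (0.0992), in the fit of the compared libraries alone (0.1), without Tfh_1 replicates 1 or 3 or Tfh_5 replicate 6 of the label Cre-positive (0.0889, 0.0728 and 0.0571) or without Tfh_1 replicates 2 or 4 of the label Cre-negative (0.0741 and 0.0837). Pgk1 did not pass with RLE scaling (0.0584), with no count filter (0.0726), in the fit of the compared libraries alone (0.157) or in 8 of the 12 fits that left out 1 library (0.0571 to 0.163).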

How the results depend on the processing

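Of the 206 genes called with the label Cre-positive, 80 were called in each fit that left out 1 of the 6 libraries and 58 in every setting tried. The count ranged from 145 to 192 over those fits, with 28 to 47 higher and 113 to 145 lower. DESeq2 called 397 (142 higher, 255 lower), limma-voom 314 (117 higher, 197 lower) and the fit with no count filter 314 (94 higher, 220 lower); all 206 were among the 397, and 164 among the 314 of limma-voom. The share of higher genes was 24.8% in edgeR, 35.8% in DESeq2 and 37.3% in limma-voom. Only the 6 libraries compared gave 115 (38 higher, 77 lower), of which 99 were shared. RLE scaling gave 199, scaling without the 2 most abundant identifiers 206 and a stricter filter 211; with settings chosen after seeing the data, leaving out Tfh_5 replicate 5 of the label Cre-negative gave 215 (49 higher) and the 9 libraries labelled Cre-positive 156. Whether the replicate numbers pair the samples is not known. Correlations of deviations from the group means were -0.00060, -0.0209 and 0.0117 between same-numbered libraries of the label Cre-positive. Between other numbers they ranged from -0.0252 to 0.0259. These correlations weigh all tested genes alike, those with few counts included, so they cannot exclude a shared source. A replicate block gave 194 over 18 libraries and 88 (28 higher, 60 lower) in the 6 alone, where 6 of 19 hypoxia members were lower. With the label Cre-negative the count of 65 was 211 in DESeq2 (93 higher, 118 lower), 232 with no filter (88 higher, 144 lower) and 28 in its 6 libraries alone (16 higher, 12 lower), limma-voom called 50 higher, and leaving out 1 library gave 25 to 94 (14 to 41 higher, 11 to 53 lower). The test of the difference called 52 genes in DESeq2, 45 with no filter, 3 in the compared libraries alone, 16 with the replicate block and 5 to 21 on leaving out 1 library. The difference in genes detected, 76.7, ranged from -94.5 to 319.5 without single libraries, and that in the share of the 2 most abundant identifiers, 1.5 percentage points, from 0.627 to 2.80. Near 0, the uncalled log2 values of Il2ra, Klf2 and Batf changed sign on leaving out 1 library, with ranges of -0.156 to 0.0519, -0.276 to 0.163 and -0.304 to 0.0104. Depth limits genes with few counts: 20 lower and 3 higher genes stood under 10 CPM in their higher group.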
